A study of Homo sapiens with 8 samples.

Results

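U266/s is a human multiple myeloma cell line, here the melphalan-sensitive parent of the resistant line U266/LR7. Its transcriptome was read 12 h after a dose of melphalan, and the arrays with the drug were set against those without it. The comparison uses 4 of the 8 arrays in the series, 2 with melphalan and 2 without, and every U266/s array belongs to it. The first array with melphalan came from cells given 100 µM melphalan alone. The second came from cells given 100 µM melphalan together with 100 nM inhibitors against 2 microRNAs, miR-221 and miR-222. The array set against the melphalan-alone array came from cells given a negative-control oligonucleotide, and the array set against the combination came from cells given the 2 inhibitors without melphalan. The 4 U266/LR7 arrays received the same 4 treatments and serve for contrast. The tags of the melphalan-alone array record no transfection, whereas the protocol text reads as if all cells without inhibitors had received the control oligonucleotide. The pair without inhibitors may therefore differ in transfection as well as in drug, while both arrays of the inhibitor-matched pair were transfected.

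Melphalan is a nitrogen mustard joined to phenylalanine, taken up through amino acid transporters. It alkylates guanines and forms crosslinks between DNA strands, which block replication and transcription and call on the Fanconi anaemia pathway, nucleotide excision repair and checkpoint kinases such as ATR. Plasma cells, the normal counterparts of myeloma cells, make and secrete antibody under the transcription factors IRF4, PRDM1 and XBP1. Myeloma lines often depend on MYC, IRF4 and interleukin 6 signalling. The microRNAs blocked in 2 of the 4 arrays share their seed, bases 2 to 8 of the mature strand and the part that pairs with targets. They are shown with the seed in capitals, as given by RefSeq on GRCh38.p14, where both lie on chromosome X:
miR-221-3p: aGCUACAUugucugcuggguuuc
miR-222-3p: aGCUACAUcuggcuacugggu

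Values are log2 signals of RMA, a method that corrects background, quantile-normalizes arrays and summarizes probes, so a difference of 1 is a 2-fold change. Interquartile ranges of all probe sets were 3.25 and 3.34 log2 units on the 2 U266/s arrays with melphalan, against 3.58 to 3.71 on the other 6 arrays. Of 13 plasma cell markers, 10 lay above the upper quartile of every U266/s array, and 0 of the 6 B cell, 9 T and NK cell, 7 myeloid or 9 stromal and epithelial markers did. Each condition has 1 array, and nothing in the labels says that arrays came from separate cultures. The spread behind every p-value here comes from single arrays of both lines. It is how far the difference between arrays with and without inhibitors varied with line and melphalan. Inhibitor effects, transfection and technical variation cannot be told apart in it, and it does not measure variation between cultures. The number of arrays limits the precision, and a 2-against-2 permutation test of a single gene could not go below p = 0.333 (exact, two-sided).

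Melphalan changed the RNA profile of U266/s broadly within 12 h, and called falls were larger than called rises. Of 18417 genes tested, 3391 were higher (18.4%) and 4593 lower (24.9%) with melphalan at a limma adjusted p below 0.05, together 43.4% of genes. Counts in the gene groups below are to be read beside these shares. The median change was 0.56 log2 units among genes called higher and -0.90 among genes called lower. Differences of at least 1 log2 unit were found in 373 higher and 1917 lower genes, and of at least 2 log2 units in 55 higher and 206 lower genes. Genes that fell were abundant before treatment, with a median signal of 9.11 without melphalan, against 7.11 for genes that rose and 7.37 for all genes. The median of all genes was 0.08, and it was -0.07 after centring each array on its median and 0.14 after centring on the tested genes. Changes below are best read relative to it. Which direction held more genes depended on the scaling. With median centring over all probe sets 1669 genes were higher and 5409 lower (23.6% of calls higher, against 42.5% as deposited). The order turned with centring on the tested genes, which gave 4501 higher and 4281 lower, and with quantile normalization of the tested genes, which gave 4383 and 3821.

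The coding genes that rose most had low or moderate signal before treatment. PYGM, the muscle glycogen phosphorylase, stood at 10.17 and 9.32 with melphalan, against 6.23 and 6.37 without, a rise of 3.45 ± 0.20 log2 units (SE, limma adjusted p = 1.96e-06). SAT1, which acetylates spermidine and spermine and so starts polyamine breakdown, was 10.12 and 9.92 with melphalan and 7.54 and 6.99 without (+2.75 ± 0.21). HEXIM1 encodes an inhibitor of the transcription elongation kinase P-TEFb. It reached 11.36 and 11.01 with melphalan, against 8.45 and 8.68 without (+2.62 ± 0.21, limma adjusted p = 5.8e-06), so both treated arrays lay far above both untreated ones. CFAP141, a gene named for cilia and flagella, rose by 2.17 ± 0.15. PAGE2 and PAGE5, members of a cancer-testis antigen family on the X chromosome, rose by 2.17 and 2.11, and their close sequence likeness to other family members may mix their signals. The other coding genes among the 12 largest rises were the immediate early genes NR4A2, FOS, EGR1 and JUN and the histone genes H2AC14 and H2AC12, described with their groups.

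The genes that fell most included immune, signalling and transcription genes with moderate to high signal in untreated cells. CXCL10, a chemokine that attracts activated T cells, was 5.07 and 4.85 with melphalan, against 9.10 and 9.37 without (-4.28 ± 0.17, limma adjusted p = 4.95e-07). Its treated values lay under the lower quartile of their arrays (5.34 and 5.24), as did PLA2G4A, the cytosolic phospholipase, at 4.69 and 4.95 against 8.39 and 7.91 (-3.33). These falls are therefore bounded by the floor of the assay. THEMIS, an adaptor of T cell receptor signalling, was 6.64 and 7.21 with melphalan and 10.53 and 10.48 without (-3.58 ± 0.16). TDO2, which degrades tryptophan, stood at 5.11 and 5.92, against 8.51 and 8.93 (-3.20), the value with melphalan alone again under the lower quartile. AHR, the aryl hydrocarbon receptor and a sensor of tryptophan products, was 7.19 and 7.17 with melphalan and 10.01 and 10.29 without (-2.96 ± 0.17). NCK1, an adaptor of receptor tyrosine kinases, was 5.98 and 6.21, against 9.06 and 9.08 (-2.97 ± 0.15). RGL1, an exchange factor for Ral, fell by 2.80, and GLCE, a heparan sulfate epimerase, fell by 2.77. NRIP1, a nuclear receptor corepressor, fell by 2.75, TBPL1, a relative of the TATA-binding protein, fell by 2.73, and the zinc finger gene ZNF804A fell by 2.89. The linker histone gene H1-5 completes the 12 and is described with the histones.

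**Figure D1:**
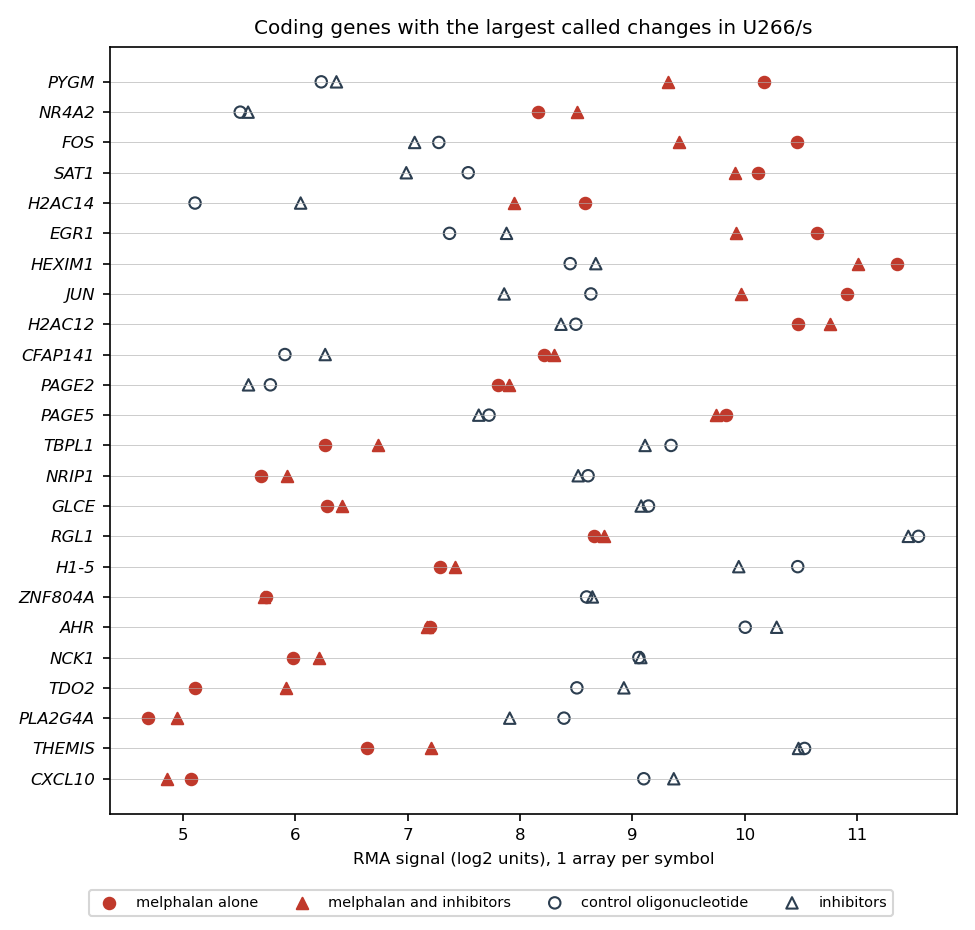
Log2 RMA signal of the 12 coding genes with the largest called rises and the 12 with the largest called falls, 1 symbol per U266/s array, with filled symbols for melphalan and open symbols for no melphalan. The genes were chosen for the size of this difference, and PYGM stands at 10.17 and 9.32 with melphalan, against 6.23 and 6.37 without.

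The response was seen in both pairs of arrays. All 7984 called genes moved in the same direction in the melphalan-alone pair and in the inhibitor-matched pair, as did 82.4% of all genes, and the calls rest on both pairs. The differences of the 2 pairs had a Pearson r of 0.888 over all genes, and genes are no independent replicates. The response was wider in the pair without inhibitors, with an SD over genes of 0.74 log2 units, against 0.63 in the inhibitor-matched pair, and 69.0% of called genes had the larger absolute difference in it (medians 0.796 and 0.662). FOS rose by 3.19 in the pair without inhibitors and by 2.36 in the inhibitor-matched pair, EGR1 by 3.27 and 2.04, H2AC14 by 3.48 and 1.90, while RB1 stood at -3.01 and -2.09. The order was opposite for MYC, at -2.38 without inhibitors and -2.56 with them, and for AHR, at -2.81 and -3.11. Whether the inhibitors or the transfection carried the difference between pairs was not tested. In a fit of the inhibitor-matched pair alone, 1011 genes were higher (5.49%) and 2724 lower (14.8%), and counts from this fit are given with the gene groups below.

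**Figure D2:**
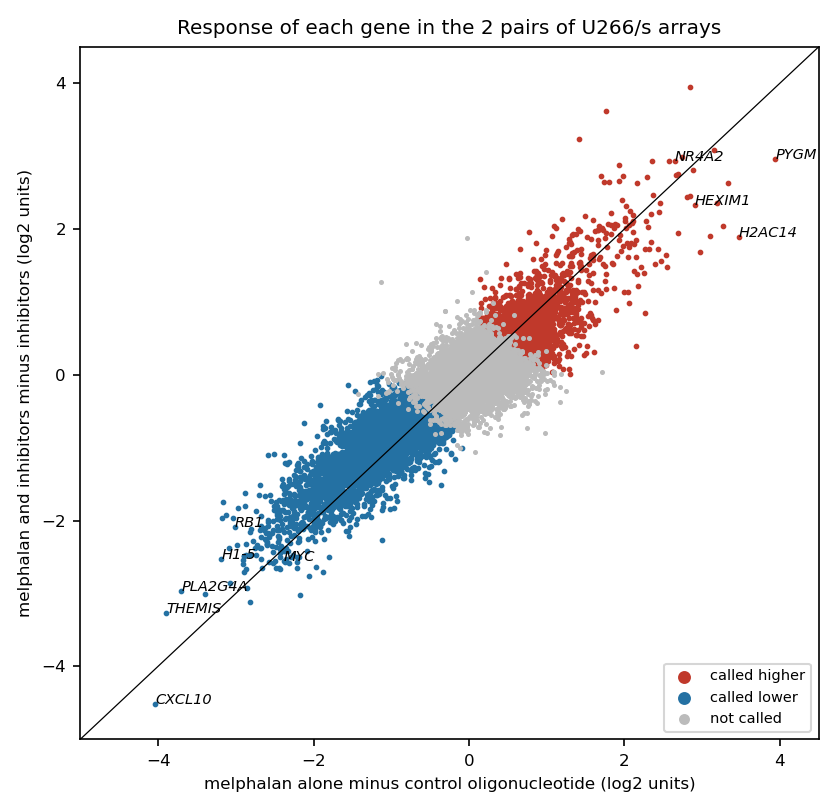
Difference of each of the 18417 genes in the pair without inhibitors (x axis) and in the inhibitor-matched pair (y axis), both in log2 units, with the line of equality. Genes called higher (red) and lower (blue) lie in the same quadrant in both pairs, and PYGM, H2AC14 and RB1 lie farther out along the x axis.

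Among genes of the DNA damage response, most checkpoint and crosslink repair genes were lowered, while p53 target genes moved in both directions. Of 28 measured p53 targets, 9 rose and 11 fell, with a median of 0.11 that turned to -0.04 under median centring (5 and 8 in the inhibitor-matched pair alone). CDKN1A, which encodes the cell cycle inhibitor p21, was 8.63 and 8.64 with melphalan, against 7.22 and 7.37 without (+1.34 ± 0.17, limma adjusted p = 9.5e-05). SERTAD1, TRIAP1 and DDB2, a damage-recognition factor of excision repair, rose by 1.003, 0.93 and 0.89. The death receptor gene FAS fell to 9.56 and 9.30 with melphalan, against 11.23 and 11.15 without (-1.75 ± 0.14). Falls were also called for RRM2B, a ribonucleotide reductase subunit (-1.66), the phosphatase gene PPM1D (-1.52) and the glycolysis regulator TIGAR (-1.38). Without the U266/s melphalan-alone array 5 of the list rose. MDM2, the ubiquitin ligase for p53, was 11.18 and 10.78 with melphalan and 11.58 and 11.63 without (-0.63 ± 0.15, limma adjusted p = 0.00661), a call lost when either inhibitor-treated array was left out. The risers had a median genomic span of 10.9 kb and the fallers of 44.3 kb.

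Checkpoint and repair genes fell more often than they rose, as did all genes (18.4% higher and 24.9% lower). Of 22 checkpoint kinases and damage sensors, 2 rose and 16 fell (median -0.87), and 11 fell in the inhibitor-matched pair alone. ATR, the kinase that answers stalled replication forks, was 7.08 and 6.76 with melphalan, against 8.91 and 8.56 without (-1.82 ± 0.19, limma adjusted p = 2.73e-05). ATM, the kinase that answers double-strand breaks, was 6.48 and 6.25, against 7.77 and 7.57 (-1.31). NBN, of the break-sensing complex that recruits ATM, was 7.71 and 7.90, against 9.996 and 9.62, and the ATR adaptor CLSPN and the kinase CHEK1 fell by 1.57 and 0.85. None of these 5 genes had overlapping treated and untreated arrays, as was the case for 73.3% of all genes. Of 27 crosslink repair genes, 1 rose and 16 fell (median -0.70, 10 lower in the inhibitor-matched pair alone). REV1, a translesion polymerase, was 6.21 and 5.999 with melphalan and 7.87 and 7.70 without (-1.68 ± 0.15). BLM, a helicase, fell by 1.62. FANCM, which recognises stalled forks, fell by 1.51, and ERCC4, a subunit of the nuclease that unhooks crosslinks, by 1.48. Excision repair genes rose in 4 and fell in 11 of 24 cases, led by MNAT1 (-2.02), a subunit of the CDK-activating kinase. End joining genes rose in 2 and fell in 7 of 16 cases, led by XRCC4 (-1.89) and NHEJ1 (-1.75), partners of the joining ligase. In the inhibitor-matched pair alone, 5 excision repair and 3 end joining genes fell. Without the U266/s control array, falls numbered 10 in crosslink repair, 7 in excision repair and 4 in end joining.

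Among genes of cell death, those of the receptor pathway fell, whereas most of the BCL2 family did not pass the test. Death receptor and caspase genes gave 13 falls and 1 rise among 23 (7 and 0 in the inhibitor-matched pair alone). TNFSF10, the ligand TRAIL, was 6.28 and 6.54 with melphalan, against 8.72 and 8.25 without (-2.08 ± 0.17, limma adjusted p = 7.53e-06), and its receptor gene TNFRSF10B was 8.19 and 8.06, against 8.999 and 9.14 (-0.95). APAF1, the scaffold of the apoptosome, fell by 1.02, and the caspase inhibitor gene XIAP by 1.19, which was not called without the U266/s control array. Both inducers and inhibitors of cell death were thus among the fallers. In the BCL2 family 5 of 18 genes rose and 2 fell (median 0.17), against 18.4% of all genes higher and 24.9% lower. BBC3, which encodes the BH3-only protein PUMA, was 8.17 and 8.21 with melphalan and 7.29 and 7.42 without (+0.84 ± 0.14, limma adjusted p = 0.000672). BBC3 was the 1 family member called in the inhibitor-matched pair alone, and without the U266/s control array 1 member rose and 0 fell. The survival gene MCL1 stood at 11.82 and 11.25 with melphalan, against 11.72 and 11.47 without (-0.06 ± 0.14), and its arrays overlapped. The BH3-only genes BCL2L11 (-0.27 ± 0.14) and PMAIP1 (0.23 ± 0.18) did not pass the test either.

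Genes of mitosis fell together, and their share called in 1 direction exceeded that of every other list with 20 or more measured members. Of 39 G2/M and mitosis genes, 33 fell and 2 rose (median -1.33 log2 units), against 24.9% of all genes lower. In the inhibitor-matched pair alone 30 fell and 1 rose. KIF18A, a kinesin that dampens chromosome movement, was 6.29 and 6.18 with melphalan, against 9.16 and 8.65 without (-2.67 ± 0.20, limma adjusted p = 4.84e-06). ASPM, a spindle pole protein gene, was 7.80 and 7.16, against 10.01 and 9.66 (-2.36), and BUB1B, of the spindle checkpoint, was 8.52 and 8.43, against 10.82 and 10.74 (-2.30 ± 0.13). ECT2, needed for cytokinesis, was 7.01 and 7.09, against 9.53 and 9.10 (-2.26). PTTG1, which encodes securin, and the phosphatase gene CDC25B rose by 0.79 and 0.77, and the call of PTTG1 was lost without the U266/s array with inhibitors. In these bulk samples, fewer cells in a phase and less RNA per cell cannot be told apart.

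Promoters of mitotic genes often hold a cell cycle homology region, here searched as TTTGAA, and CCAAT boxes. TTK, a mitotic gene that fell by 2.30, is not among the 4 promoters below. They belong to the mitotic genes just described and are examples. All 4 hold TTTGAA in 1 orientation or the other, unlike some of the mitotic promoters counted below. Each gives the 150 bases before the RefSeq start on GRCh38.p14, with these motifs in capitals in either orientation. KIF18A lies at chr11:28108157-28108306 on the minus strand, ASPM at chr1:197146670-197146819 on the minus strand, BUB1B at chr15:40160919-40161068 on the plus strand and ECT2 at chr3:172750576-172750725 on the plus strand:
KIF18A: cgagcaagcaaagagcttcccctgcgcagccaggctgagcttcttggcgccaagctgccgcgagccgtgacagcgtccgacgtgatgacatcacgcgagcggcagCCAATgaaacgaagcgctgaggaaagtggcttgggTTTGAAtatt
ASPM: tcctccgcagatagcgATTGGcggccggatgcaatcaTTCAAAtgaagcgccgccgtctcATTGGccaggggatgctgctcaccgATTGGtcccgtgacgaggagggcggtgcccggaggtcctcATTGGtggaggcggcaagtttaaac
BUB1B: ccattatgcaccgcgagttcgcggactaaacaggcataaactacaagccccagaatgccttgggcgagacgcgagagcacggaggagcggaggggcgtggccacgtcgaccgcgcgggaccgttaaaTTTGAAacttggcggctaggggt
ECT2: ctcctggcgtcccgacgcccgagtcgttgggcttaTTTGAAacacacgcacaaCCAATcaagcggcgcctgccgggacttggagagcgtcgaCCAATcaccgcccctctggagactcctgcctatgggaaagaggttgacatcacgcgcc
Windows of 300 bases ran from 250 before to 50 after the start. Both strands were searched, and each motif was counted whether or not it overlapped another. TTTGAA was present in 23 of 34 mitotic promoters (67.6%), against 11.8% of all 13770 coding promoters matched by gene ID. CCAAT was present in 25 of the 34 (73.5%), against 36.4% of all. Among all genes called lower, TTTGAA was present in 12.5% of promoters, near the 12.1% of genes not called, against 9.77% among those called higher. A match describes the sequence and is not evidence of binding.

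Genes that act before mitosis split. Of 36 G1/S and replication genes, 9 rose and 13 fell, but 0 rose and 8 fell in the inhibitor-matched pair alone, and 1 rose without the U266/s control array. CCNE2, a cyclin of S phase entry, and GINS1, of the replicative helicase, fell by 1.26 and 1.34, and the transcription factor gene E2F1 rose by 0.82. Among CDK inhibitors and RB family genes, 3 of 18 rose and 12 fell (1 and 5 in the inhibitor-matched pair alone, 1 and 7 without the U266/s control array). RB1, the retinoblastoma gene, was 6.855 and 7.43 with melphalan and 9.87 and 9.51 without (-2.55 ± 0.22, limma adjusted p = 8.36e-06). CDKN1B, which encodes the inhibitor p27, was 10.57 and 10.14, against 11.56 and 11.28 (-1.07 ± 0.14). The inhibitor genes CDKN1A, CDKN2D (0.68) and CDKN1C (0.59) rose, although CDKN2D and CDKN1C lost their call without the U266/s control array, and CDKN1C also without the melphalan-alone array.

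Immediate early genes, which encode short-lived transcription factors and feedback regulators induced by stress and growth signals, were raised as a group. Of 34 measured, 25 rose and 0 fell (median 0.87), against 18.4% of all genes higher, and 16 rose in the inhibitor-matched pair alone. FOS was 10.47 and 9.42 with melphalan, against 7.28 and 7.06 without (+2.77 ± 0.28, limma adjusted p = 2.03e-05). Its partner JUN was 10.91 and 9.97, against 8.63 and 7.86 (+2.19 ± 0.29), and FOSB was 9.55 and 8.55, against 7.01 and 6.90 (+2.09). EGR1, a zinc finger factor, was 10.64 and 9.92, against 7.37 and 7.88 (+2.65 ± 0.26). For FOS, FOSB, JUN and EGR1 alike, the melphalan-alone array was the higher of the 2 treated arrays. The orphan nuclear receptor gene NR4A2 was 8.16 and 8.51 with melphalan and 5.51 and 5.58 without (+2.79 ± 0.16), here with the combination array higher. IER3 (+2.02), IER2 (+1.96), ATF3 (+1.48) and GADD45B (+1.27) rose too. KLF10 (-0.46), DUSP6 (-0.45) and ZFP36 (-0.27), which belong to the same class, did not pass the test. The list median, 0.87 as deposited, was 0.72 to 1.18 over the 5 other normalizations. Dual-specificity phosphatase genes, several of which switch off MAP kinases, rose in 8 and fell in 6 of 23 cases (2 and 4 in the inhibitor-matched pair alone, 2 rising without the U266/s melphalan-alone array), with DUSP14 at -1.33, DUSP16 at -1.15 and DUSP10, DUSP22 and DUSP3 at -1.15, 0.91 and 1.16.

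Promoters of this class are known for serum response elements (CArG boxes), cyclic AMP response elements and TATA boxes. A few of them, from genes that rose, are shown as above, with CArG boxes and TATAAA in capitals. FOS lies at chr14:75278678-75278827, EGR1 at chr5:138465329-138465478 and FOSB at chr19:45467846-45467995, all on the plus strand:
FOS: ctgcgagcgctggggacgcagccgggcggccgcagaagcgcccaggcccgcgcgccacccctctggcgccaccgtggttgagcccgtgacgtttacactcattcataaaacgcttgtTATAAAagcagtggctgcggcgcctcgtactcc
EGR1: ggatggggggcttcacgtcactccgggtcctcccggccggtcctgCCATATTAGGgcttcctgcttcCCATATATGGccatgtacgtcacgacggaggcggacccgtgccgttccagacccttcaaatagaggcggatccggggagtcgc
FOSB: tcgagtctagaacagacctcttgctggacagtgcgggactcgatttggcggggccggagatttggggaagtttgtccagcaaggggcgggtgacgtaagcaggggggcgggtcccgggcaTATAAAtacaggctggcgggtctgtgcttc
In the 300-base windows TATAAA was present in 7 of 26 immediate early promoters (26.9%), against 8.99% of all promoters. It was present in 10.8% of promoters of genes called higher, near the 10.3% of genes not called, and in 5.37% of those called lower. A CArG box was present in 2 of the 26, against 1.25% of all, and the response element TGACGTCA in 4 of the 26, against 2.69% of all. Median GC content was 63.7% in promoters of genes called higher and 64.7% in those called lower.

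Several components of the transcription machinery moved in opposite directions. Of 12 RNA polymerase II subunit genes, 5 rose and 2 fell, but in the inhibitor-matched pair alone 1 rose and 1 fell, and without the U266/s inhibitor array 0 rose. POLR2A, the largest subunit, was 9.92 and 10.02 with melphalan, against 9.47 and 9.35 without (+0.56 ± 0.14, limma adjusted p = 0.00796), a call lost without either inhibitor-treated array and under median centring. POLR2B, the second largest, was 9.26 and 9.18, against 10.94 and 10.77 (-1.64 ± 0.14, limma adjusted p = 7.47e-06). Of 32 genes of P-TEFb and elongation control, 4 rose and 12 fell (1 and 5 in the inhibitor-matched pair alone). HEXIM1, given above, rose, whereas the cyclin gene CCNT2 was 7.53 and 7.62 with melphalan and 8.91 and 8.59 without (-1.18). The elongation kinase gene CDK13 was 8.62 and 8.42, against 10.30 and 10.12 (-1.69 ± 0.18). CDK9, the kinase of P-TEFb, was 11.71 and 11.76, against 11.11 and 11.34 (+0.51), a call lost without the U266/s control array. Among 41 chromatin acetylation and methylation enzymes 8 rose and 17 fell (1 and 11 in the inhibitor-matched pair alone, 1 rising without the U266/s control array), led downward by the demethylase gene KDM6A (-2.44) and the methyltransferase family gene KMT2E (-1.96), with the methyltransferase gene KMT2D at 0.96. Of 21 SR protein and splicing kinase genes, 5 rose and 7 fell (0 and 4 in the inhibitor-matched pair alone, 0 and 3 without the U266/s control array), DYRK1A among them (-1.57). Numbered zinc finger genes gave 163 falls and 57 rises among 480 (98 and 21 in the inhibitor-matched pair alone, 100 and 26 without the U266/s control array).

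Among small structured noncoding RNAs of the nucleus, rises outnumbered falls in each class. Rises were called for 18 of 23 small nuclear RNA genes, with 0 falls and a median of 1.01, against 18.4% of all genes higher. Of 16 Cajal body RNA genes 12 rose (median 1.83), and of 61 H/ACA box snoRNA genes 38 rose and 4 fell. Of 115 C/D box snoRNA genes 52 rose and 7 fell. In the inhibitor-matched pair alone the rises numbered 10, 12, 32 and 42 in the same order. RNU6ATAC, an RNA of the minor spliceosome, was 8.73 and 8.56 with melphalan, against 5.57 and 5.48 without (+3.12 ± 0.22, limma adjusted p = 3.62e-06). RNU4-1, a U4 RNA of the major spliceosome, was 10.34 and 9.65, against 7.65 and 6.89 (+2.73). SCARNA9, which guides modification of spliceosomal RNA, was 10.31 and 9.996, against 7.43 and 7.18 (+2.85 ± 0.24). The RNAs of several ribonucleoprotein enzymes rose as well. RPPH1, the RNA of RNase P, was 12.08 and 12.01 with melphalan, against 9.33 and 9.02 without (+2.87 ± 0.21), RMRP, the RNA of RNase MRP, was 13.07 and 13.24, against 11.24 and 11.03 (+2.02), and TERC, the telomerase RNA, was 11.16 and 11.33, against 9.23 and 9.48 (+1.89). MALAT1, a long nuclear RNA, was 13.35 and 13.21 with melphalan and 12.17 and 12.19 without (+1.10). RMRP, TERC and MALAT1 were chosen after their values were seen. SNORD13P1, a pseudogene, was 5.95 and 6.59 with melphalan, and its untreated values of 3.10 and 2.64 lay at the floor. The share of precursors in these signals is not known. These genes are very short, with median spans of 0.145 kb for small nuclear RNAs, 0.134 kb for H/ACA box and 0.081 kb for C/D box snoRNAs. Each condition has 1 array, and whether recovery of short RNAs differed between arrays was not tested.

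MicroRNA and long intergenic noncoding RNA genes rose more often than they fell. Of 189 microRNA genes 46 rose and 9 fell, and of 206 long intergenic genes 56 rose and 2 fell. Among all genes, 18.4% were higher and 24.9% lower. The microRNA genes had a mean signal of 5.02 to 5.33 on the U266/s arrays, near the lower quartiles of these arrays (5.07 to 5.34). The medians of the microRNA and long intergenic lists were 0.23 and 0.25 as deposited. Over the 5 other normalizations they were 0.01 to 0.29 and 0.02 to 0.31, so the size of these rises depended on the scaling. In the inhibitor-matched pair alone, 14 and 18 rose, and the U266/s control array alone moved these counts to 18 and 21 when left out. MIR9-1 was 7.72 and 6.83 with melphalan, against 4.75 and 5.14 without (+2.33), and MIR21, a microRNA abundant in many tumours, was 5.69 and 6.05, against 6.98 and 7.71 (-1.48 ± 0.26). MIR221 stood at 4.69 and 5.28 with melphalan and 5.24 and 5.97 without (-0.62, limma adjusted p = 0.0165), with overlapping arrays, and MIR222 at 4.73 and 5.96, against 4.03 and 6.197 (0.23, limma adjusted p = 0.679). These probe sets read the gene, not the mature strand that the inhibitors bind. Known targets of miR-221 and miR-222 rose in 6 and fell in 14 of 31 cases (2 and 13 in the inhibitor-matched pair alone, 3 rising without the U266/s control array), with the phosphatase subunit gene PPP2R2A at -2.40 and the transcription factor gene IRF2 at -1.77. The risers of this list had a median span of 8.09 kb and the fallers of 84.0 kb.

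Replication histone genes moved apart from one another. Of 57 measured, 23 rose and 12 fell (median 0.34), and 16 rose and 4 fell in the inhibitor-matched pair alone. Without the U266/s control array 7 fell. H2AC14 was 8.58 and 7.94 with melphalan, against 5.11 and 6.05 without (+2.69 ± 0.31, limma adjusted p = 4.46e-05), and H2AC12 was 10.47 and 10.77, against 8.50 and 8.37 (+2.19). The linker histone gene H1-5 was 7.29 and 7.42, against 10.47 and 9.95 (-2.86 ± 0.18, limma adjusted p = 2.35e-06). H2AC21 and H2BC14 fell by 2.08 and 2.02. Replication histone genes are very short, with median spans of 0.487 kb for risers and 0.508 kb for fallers. Histone genes are near-identical in their coding sequence, so probe sets may share signal between copies. In their promoters TATAAA was present in 34 of 52 (65.4%) and CCAAT in 44 of 52.

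Genes of the translation apparatus differed by component. Cytosolic ribosomal protein genes rose in 40 of 67 cases and fell in 0 (median 0.40), and 20 rose in the inhibitor-matched pair alone and 23 without the U266/s control array. RPL32 was 8.80 and 9.10 with melphalan, against 7.68 and 7.45 without (+1.38 ± 0.18, limma adjusted p = 9.11e-05), and RPL13 was 11.62 and 11.88, against 10.61 and 10.44 (+1.23). Their many pseudogenes make the signal of single genes uncertain. Ribosome biogenesis genes rose in 1 and fell in 17 of 31 cases (0 and 8 in the inhibitor-matched pair alone). UTP20, of the small-subunit processome, was 7.12 and 7.37 with melphalan, against 9.59 and 9.50 without (-2.30 ± 0.18), and POLR1B, a subunit of RNA polymerase I, was 7.999 and 8.21, against 9.88 and 9.87 (-1.77). Aminoacyl-tRNA synthetase genes gave 18 falls and 2 rises among 35, led by NARS2 (-1.81) and EPRS1 (-1.35). Mitochondrial ribosomal protein genes rose in 11 and fell in 19 of 73 cases, shares near those of all genes (18.4% higher and 24.9% lower), with MRPS35 at -1.74 and MRPL10 at 0.97. In the inhibitor-matched pair alone 9 synthetase genes and 7 mitochondrial ribosomal genes fell. Without the U266/s control array 9 biogenesis and 11 mitochondrial ribosomal genes fell and 6 of the mitochondrial ones rose.

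**Figure D3:**
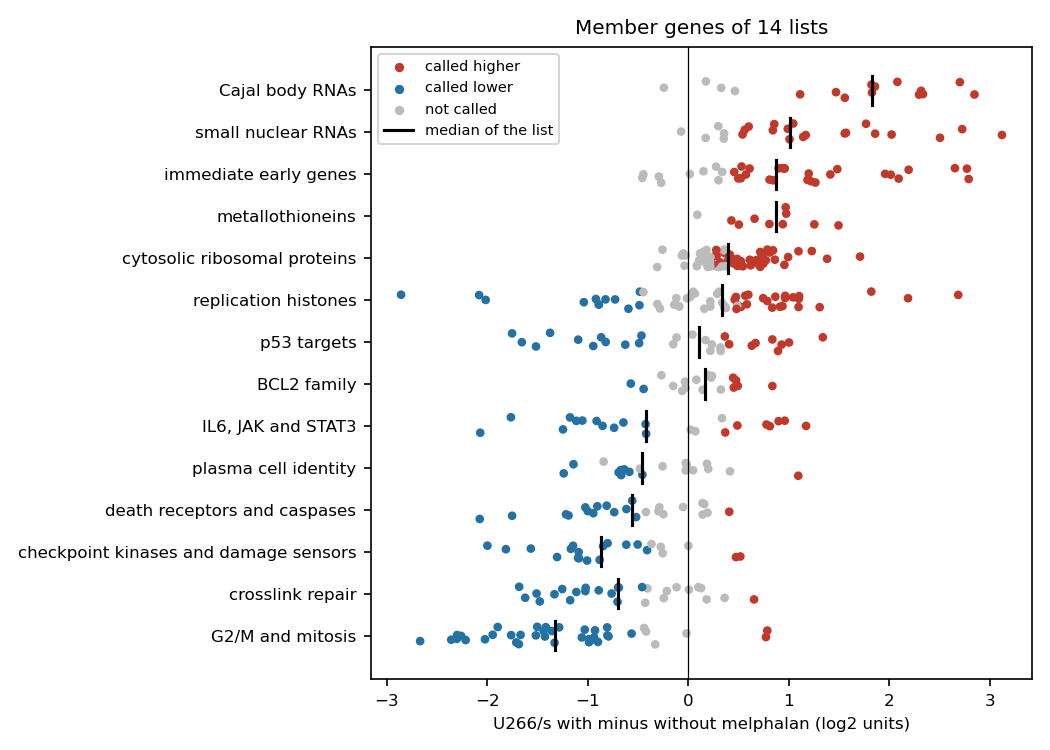
Difference with minus without melphalan in U266/s (x axis, log2 units) for every measured member of 14 gene lists (y axis), 1 point per gene, with red for called higher, blue for called lower, grey for not called and a black bar at the list median. Cajal body RNAs and immediate early genes lie mostly right of 0 (medians 1.83 and 0.87), G2/M genes mostly left of 0 (median -1.33), and histones and p53 targets on both sides.

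Among genes that mark and sustain myeloma cells, falls outnumbered rises, and the largest share of both lists was not called. MYC was 10.07 and 9.73 with melphalan, against 12.45 and 12.29 without (-2.47 ± 0.17, limma adjusted p = 3.06e-06), and the gene spans 7.52 kb. IKZF1 and IKZF3, the lymphoid factors degraded by lenalidomide, were 9.39 and 9.28 with melphalan, against 10.60 and 10.40 without (-1.17), and 10.98 and 11.06, against 11.94 and 12.01 (-0.95). CCND1, the cyclin D gene activated in U266 cells, rose to 11.48 and 11.34 with melphalan, against 10.35 and 10.27 without (+1.10 ± 0.12, limma adjusted p = 3.81e-05). In all, 3 of 26 myeloma driver and cyclin D genes rose and 9 fell (2 and 5 in the inhibitor-matched pair alone). Of 19 plasma cell identity genes 1 rose and 8 fell, with 1 and 3 in the inhibitor-matched pair alone and 4 falling without the U266/s control array. PRDM1 was 10.67 and 10.60 with melphalan and 11.79 and 11.76 without (-1.14 ± 0.11), XBP1 was 11.42 and 11.19, against 12.06 and 11.90 (-0.67), and IRF4 was 12.12 and 12.06, against 12.59 and 12.51 (-0.46). The syndecan gene SDC1, which encodes the plasma cell surface marker CD138, was 10.36 and 10.57 with melphalan, against 9.47 and 9.26 without (+1.09 ± 0.19). The surface gene CD38 was 6.48 and 6.60, against 7.67 and 6.80 (-0.69 ± 0.24), a call that rested on the control and melphalan-alone arrays and was lost without either. TNFRSF17, which encodes BCMA, stood at -0.02 ± 0.14 and did not pass the test.

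Interleukin 6 signalling changed at the ligand, the receptor and the feedback inhibitors. Of 22 genes 7 rose and 12 fell (3 and 8 in the inhibitor-matched pair alone). The ligand gene IL6 was 6.29 and 6.52 with melphalan, against 7.61 and 7.68 without (-1.25 ± 0.15, limma adjusted p = 5.54e-05). The signal-transducing receptor gene IL6ST was 10.21 and 9.88, against 11.76 and 11.87 (-1.77 ± 0.15). The binding receptor gene IL6R went the other way, at 11.08 and 10.69 with melphalan and 10.15 and 10.06 without (+0.78 ± 0.14). The kinase genes JAK1 and JAK2 fell by 1.11 and 1.05, and TYK2 rose by 0.90. STAT3 was 10.91 and 11.19, against 11.35 and 11.59 (-0.42, limma adjusted p = 0.0139), a call lost on leaving out any 1 of the 4 U266/s arrays. The feedback inhibitor genes SOCS1 and SOCS3 were 9.13 and 9.01 with melphalan, against 7.81 and 7.99 without (+1.17), and 8.95 and 8.69, against 7.89 and 8.13 (+0.81). NF-kB pathway genes rose in 6 and fell in 7 of 25 cases, shares near those of all genes (18.4% higher and 24.9% lower). In the inhibitor-matched pair alone 2 rose and 5 fell, and 3 rose without the U266/s control array. NFKB1 stood at -2.08, the feedback gene TNFAIP3 at -0.91 and the inhibitor gene NFKBIA, which did not pass, at 0.05 ± 0.12.

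Stress pathways differed. Heat shock genes gave 15 falls and 1 rise among 21 (8 and 0 in the inhibitor-matched pair alone), with the chaperone gene HSPH1 at 9.76 and 10.05 with melphalan and 11.56 and 11.55 without (-1.65). Metallothioneins, small metal-binding proteins, rose in 9 of 10 cases (6 in the inhibitor-matched pair alone, 5 without the U266/s melphalan-alone array), with MT1E at 8.44 and 8.55, against 6.84 and 7.15 (+1.495 ± 0.16). Their copies are alike in sequence and lie side by side, so they are not independent. In the unfolded protein response 4 of 28 genes rose and 10 fell (2 and 6 in the inhibitor-matched pair alone). DDIT3, the CHOP transcription factor, was 10.55 and 10.37 with melphalan, against 8.85 and 9.24 without (+1.41 ± 0.17, limma adjusted p = 7.12e-05), and CHAC1, which degrades glutathione, rose by 1.21. EIF2AK3, the endoplasmic reticulum stress kinase PERK, fell by 1.81, and HERPUD1, of the degradation machinery there, was 11.18 and 10.99, against 12.34 and 12.31 (-1.24 ± 0.10). The chaperone gene HSPA5 stood at -0.29 ± 0.11 (limma adjusted p = 0.058). Proteasome subunit genes rose in 5 and fell in 18 of 45 cases, with 6 lower in the inhibitor-matched pair alone, 9 lower without the U266/s control array, and PSMD5, an assembly chaperone, at -1.85.

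Genes that handle melphalan itself moved in both directions. Beside all genes, of which 18.4% were higher and 24.9% lower, ABC transporter genes were called higher less often. Their share called lower lay near that of all genes. Of 30 glutathione and NRF2 genes 10 rose and 10 fell (6 and 4 in the inhibitor-matched pair alone, 5 falling without the U266/s control array). GSTP1, a glutathione transferase, was 13.000 and 12.88 with melphalan, against 11.73 and 11.49 without (+1.33 ± 0.11, limma adjusted p = 6.4e-06), and the peroxidase gene GPX1 was 9.75 and 9.95, against 8.09 and 8.10 (+1.76 ± 0.15). NFE2L2, which encodes the factor NRF2, was 8.24 and 8.43, against 10.50 and 10.21 (-2.02 ± 0.18, limma adjusted p = 9.55e-06), and GCLC, the catalytic subunit of glutathione synthesis, was 7.87 and 8.30, against 9.50 and 9.23 (-1.28). Amino acid transporter genes gave 9 falls and 1 rise among 12, but 0 fell in the inhibitor-matched pair alone and 2 without the U266/s control array. SLC7A5, the light chain of the transporter that carries melphalan, was 11.66 and 11.66 with melphalan and 12.05 and 12.02 without (-0.38 ± 0.14, limma adjusted p = 0.0466), and this call was lost on leaving out any 1 U266/s array or either U266/LR7 array with melphalan. SLC7A8, a related light chain, rose by 0.93, although its arrays overlapped (7.61 and 8.89, against 6.97 and 7.68). ABC transporter genes rose in 2 and fell in 9 of 43 cases (1 and 4 in the inhibitor-matched pair alone), with the efflux pump genes ABCC4 and ABCG2 at -2.01 and -1.98.

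Among metabolic genes, counts are to be read beside all genes, of which 18.4% were higher and 24.9% lower. The share called higher lay near that of all genes for glycolysis and cholesterol genes. For the respiratory chain neither share was far from it. The polyamine pathway held opposite changes. SAT1 rose, while AMD1, which makes the donor for spermidine synthesis, was 8.43 and 8.14 with melphalan, against 10.14 and 9.64 without (-1.60 ± 0.19), and AZIN1, an activator of ornithine decarboxylase, fell by 1.58. Of the 11 polyamine genes 1 rose and 5 fell (1 and 2 in the inhibitor-matched pair alone). Glycolysis and hypoxia genes rose in 4 and fell in 10 of 25 cases, with HIF1A at -1.81 and the glucose transporter gene SLC2A1 at -1.40. Autophagy genes rose in 4 and fell in 15 of 34 cases, with ATG5 at -1.73 and the kinase gene ULK1 at 0.77. Cholesterol synthesis genes rose in 3 and fell in 9 of 20 cases, with the epoxidase gene SQLE at -1.06. Respiratory chain subunit genes rose in 18 and fell in 13 of 71 cases, with ATP5ME, of the ATP synthase, at 1.48 and NDUFS4, of complex I, at -1.15. In the inhibitor-matched pair alone the counts higher and lower were 2 and 3 for glycolysis, 2 and 10 for autophagy, 0 and 5 for cholesterol and 9 and 1 for the respiratory chain. Without the U266/s control array, falls numbered 2 for polyamines, 4 for glycolysis, 4 for cholesterol and 6 for the respiratory chain, where 9 rose without the U266/s combination array.

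Immune genes showed no shared direction. The shares of interferon response genes called each way lay near those of all genes (18.4% higher and 24.9% lower). So did the share of chemokine genes called higher. Interferon response genes rose in 7 and fell in 8 of 38 cases (4 and 4 in the inhibitor-matched pair alone, 3 rising without the U266/s melphalan-alone array). The antiviral genes MX2 and OAS1 rose by 1.26 and 1.07, the RNA sensor gene IFIH1 fell by 1.59, and CXCL10 fell as described. Of 37 chemokine genes 7 rose and 1 fell, with 0 and 1 in the inhibitor-matched pair alone, where CXCL10 was the faller, and 1 rising without the U266/s control array. Chemokine receptor genes rose in 1 and fell in 1 of 21 cases, the faller being CCR1 (-1.73), and in 0 and 3 in the inhibitor-matched pair alone. MHC and antigen presentation genes rose in 2 and fell in 2 of 13 cases (1 and 1 in the inhibitor-matched pair alone). Adhesion genes rose in 2 and fell in 8 of 20 cases (2 and 4 in the inhibitor-matched pair alone), with the integrin gene ITGAV and the signal-regulating ligand gene CD47 near each other at -1.41 and -1.41 and the adhesion gene ICAM3 at 1.17.

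Most markers of B, T, NK, stromal and epithelial cells were not called, while several myeloid markers rose. Of 13 myeloid markers 7 rose and 0 fell (4 rose in the inhibitor-matched pair alone and 4 without the U266/s control array). CD68, a lysosomal membrane protein gene, was 8.70 and 8.69 with melphalan, against 6.71 and 6.92 without (+1.88 ± 0.17), and FCER1G, the shared Fc receptor chain, was 7.42 and 8.002, against 5.58 and 6.07 (+1.88). CD14 and MPO rose by 1.47 and 1.20. Over 7 defining myeloid markers the mean signal was 7.01 and 6.999 with melphalan, against 5.92 and 6.13 without, and LYZ lay below the lower quartile of every U266/s array. Of 11 B cell markers 2 rose and 1 fell (3 and 1 in the inhibitor-matched pair alone). Of 14 T and NK cell markers 3 rose and 0 fell, but 0 rose in the inhibitor-matched pair alone and 0 without the U266/s control array. The shares of these 2 lists called higher lay near the 18.4% of all genes. Of 15 stromal and epithelial markers 0 rose and 1 fell (0 and 1 in the inhibitor-matched pair alone). EPCAM, the faller of the last list, stood at 5.83 and 6.43 with melphalan and 8.05 and 7.74 without. The part that cells of other types have in any result was not tested.

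Across protein-coding genes, the response followed genomic span, the distance from the start to the end of a gene. The median difference was above 0 for genes up to 20 kb and below 0 for longer ones. Of genes spanning 1 to 2 kb, 37.3% were higher and 2.36% lower, and of genes spanning 100 to 200 kb, 7.02% were higher and 47.1% lower, against 17.1% and 26.8% of all 16902 coding genes. The median difference was 0.33 log2 units at 1 to 2 kb, 0.15 at 10 to 20 kb, -0.02 at 20 to 50 kb, -0.29 at 50 to 100 kb and -0.35 at 100 to 200 kb. It was -0.28 at 200 to 500 kb and -0.09 above 500 kb, where signal was low. After centring on the tested genes the median at 20 to 50 kb turned to 0.05, so the sign near 20 kb depends on the scaling. Both pairs gave a fall in the median with span up to 200 kb from 1 kb on, with medians at 100 to 200 kb of -0.37 without inhibitors and -0.33 in the inhibitor-matched pair. In the tertile of coding genes with the highest signal, the median lay between 0.46 under 1 kb and -0.79 at 100 to 200 kb, and in the tertile with the lowest signal between 0.26 at 1 to 2 kb and 0.00 at 200 to 500 kb. Across the coding genes, which share their arrays and are not independent, Spearman's rho of span with the difference was -0.41, and it was -0.41 to -0.43 over 5 other normalizations.

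The same order was counted within the gene lists. Their coding members are among the genes above and some belong to several lists, so the count is not a separate test. In 23 of the 26 lists with at least 3 members called each way, the fallers had the longer median span. The exceptions were the C/D box snoRNAs, the H/ACA box snoRNAs and the microRNA genes, all lists of very short genes. Replication histones, also very short, count among the 23 on medians of 0.508 kb for fallers and 0.487 kb for risers. In the unfolded protein response the risers had a median span of 3.34 kb and the fallers of 43.9 kb, among autophagy genes 11.4 kb and 81.4 kb, and in the interleukin 6 list 14.7 kb and 67.5 kb. Span did not order every gene. MYC, CXCL10 (2.38 kb), H1-5 (0.797 kb) and CDKN1B (5 kb) fell although short, and ATF3 (55.4 kb) and IL6R (64.1 kb) rose although longer. The part that span has in any list's shift was not tested.

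**Figure D4:**
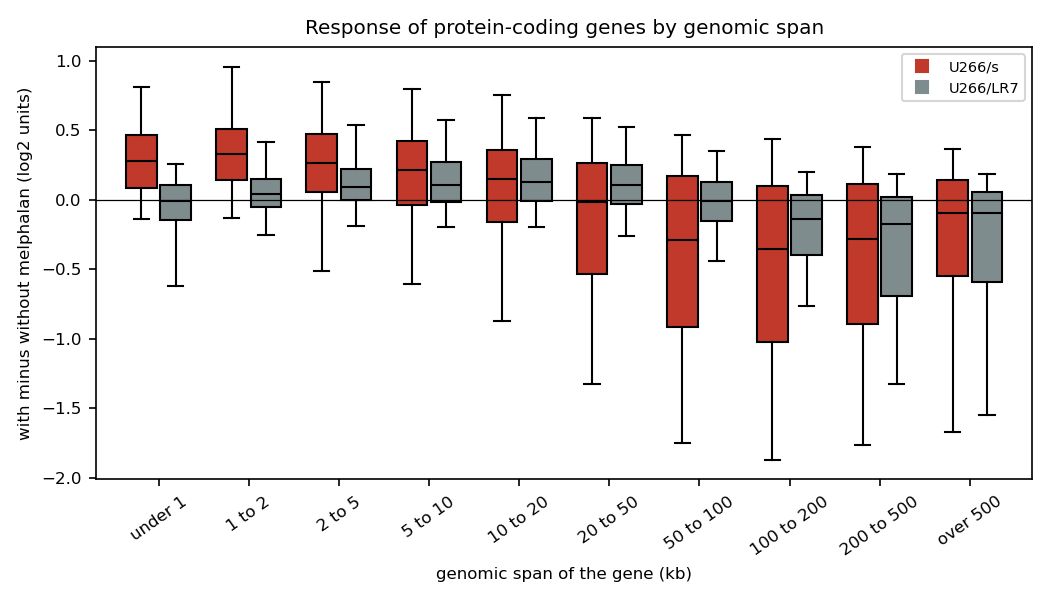
Difference with minus without melphalan (y axis, log2 units) for protein-coding genes in 10 classes of genomic span (x axis, kb), as boxes of the quartiles with the median line and whiskers at the 5th and 95th percentiles, for U266/s (red) and U266/LR7 (grey). Medians in U266/s are 0.33 at 1 to 2 kb and -0.35 at 100 to 200 kb, those in U266/LR7 0.04 and -0.14.

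**Figure D5:**
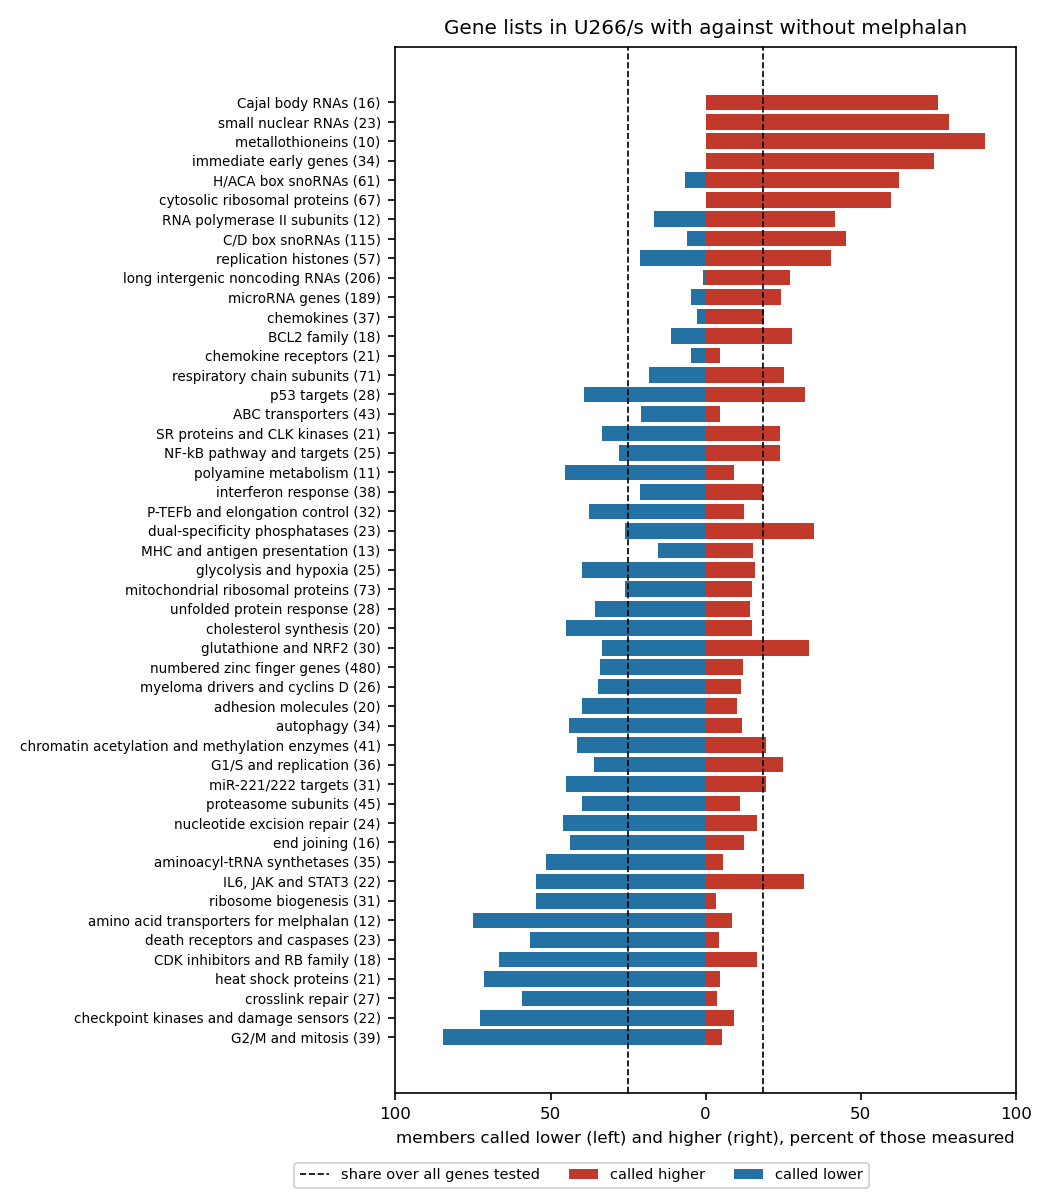
Share of the measured members of 49 gene lists (y axis, number measured in brackets, ordered by list median) called lower (blue, left) and higher (red, right) with melphalan in U266/s, in percent (x axis), with dashed lines at the shares over all genes, 24.9% lower and 18.4% higher. Metallothioneins, small nuclear RNAs, Cajal body RNAs and immediate early genes exceed the right line by most, and G2/M genes the left.

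The response of U266/s was set against that of U266/LR7 by the difference between the 2 responses in one limma model. In U266/LR7, 556 genes were higher (3.02%) and 664 lower (3.61%) with melphalan. The responses differed for 4394 genes (23.9%), with 1104 positive (5.99%), meaning higher in U266/s relative to its own untreated arrays, and 3290 negative (17.9%). The genes named as largest rises and falls were chosen on the U266/s response that enters this difference, so nothing is read from how many of them passed. MYC, which fell by 2.47 in the sensitive line, was at 0.15 in the resistant one (difference -2.62 ± 0.24, limma adjusted p = 0.0001). RB1 (-2.55 against 0.11), NFE2L2 (-2.02 against 0.29), AHR (-2.96 against -0.11) and FAS (-1.75 against -0.50) had negative differences too. HEXIM1 was raised in both lines, by 2.62 in U266/s and 1.63 in U266/LR7 (difference 0.99, limma adjusted p = 0.0299). POLR2A rose by 0.56 in U266/s and by 1.77 in U266/LR7 (difference -1.21 ± 0.20, limma adjusted p = 0.00132), the smaller rise being in the sensitive line. For CDKN1A (0.68 ± 0.24, limma adjusted p = 0.0628), BBC3 (0.44 ± 0.20, limma adjusted p = 0.144), XBP1 (-0.17 ± 0.15) and IRF4 (0.04 ± 0.14) a difference between the lines did not pass the test.

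By list, the differences between the lines ran in the direction of the U266/s change for the groups below. They were negative for 23 of 39 G2/M genes, 14 of 22 checkpoint genes and 14 of 27 crosslink repair genes, against 17.9% of all genes. They were positive for 16 of 23 small nuclear RNAs, 13 of 16 Cajal body RNAs, 30 of 57 histone genes, 21 of 67 ribosomal protein genes and 10 of 34 immediate early genes, against 5.99% of all genes. Median responses in U266/s and U266/LR7 were 1.01 and -0.32 for small nuclear RNAs, 0.34 and -0.48 for histones, 0.87 and 0.40 for immediate early genes, and -1.33 and -0.35 for G2/M genes. In U266/LR7 itself, 20 of 57 histone genes and 4 of 23 small nuclear RNAs fell and 0 rose, against 3.61% of all genes lower. Genomic span ordered both lines, with rho of -0.41 in U266/s and -0.34 in U266/LR7, whose median at 100 to 200 kb was -0.14. By tertile of signal, rho was -0.32 in U266/s and -0.11 in U266/LR7 at low signal, -0.50 and -0.42 at middle signal and -0.48 and -0.46 at high signal.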

How the data were processed

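Total RNA (RNeasy kit, Ambion WT Expression kit, biotin label) was hybridised to Affymetrix arrays, per the labels' protocols. The deposited values are log2 signals that the authors made with Affymetrix Expression Console and RMA, per the submitters' processing notes. No source used here gives their versions. Of 33297 probe sets, 19460 carry 1 symbol, 1754 several and 12083 none; 19429 matched RefSeq by gene ID. For 769 genes with several probe sets the one of highest mean was used, leaving 18417 genes.

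All 8 arrays entered one limma model (limma 3.58.1 in R 4.3.3), with a melphalan effect in each line, line and inhibitors (3 residual degrees of freedom), trended empirical Bayes, and p-values adjusted by Benjamini-Hochberg over all genes at 0.05. "Rose" and "fell" mean a call. On simulated arrays of 18417 genes, 99% of changes of 1 log2 unit and 100% of 2 log2 units in U266/s were recovered, with 16 false calls. Only 100 genes were changed by each amount there, and noise was drawn independently from the fitted variances. In the data 43.4% of genes were called, so the simulation does not show how many of those calls are false. Members and 54 lists (2422 of 2487 members measured) were chosen with earlier results of these data known. Named genes are the 12 largest coding rises and falls, 6 noncoding rises, up to 4 called members of each list each way and a fixed set, of which 2 genes were not analysed here. Some further list members are named as examples. Alternatives were normalization, signal filter, model and leaving out arrays. Promoter and microRNA sequences came from RefSeq (GRCh38.p14).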

Additional observations from a re-analysis of the deposited data

Results flagged for a closer look

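The difference between the lines in the response to melphalan passed the test for 4394 genes and was singled out for that reason, with no explanation weighed. As the response of U266/s minus that of U266/LR7, it was 2.48 log2 units for PYGM, 1.68 for NR4A2, 1.62 for FOS, 1.87 for SAT1, 2.35 for EGR1, 0.99 for HEXIM1, 1.18 for CFAP141, 2.45 for PAGE2, 2.08 for PAGE5, 3.39 for H2AC14 and 2.69 for H2AC12. Among noncoding genes it was 3.30 for SNORD13P1, 2.75 for RNU6ATAC, 2.98 for SNORD12C, 2.62 for RPPH1, 3.37 for SCARNA9 and 2.94 for RNU4-1. It was -3.85 for CXCL10, -3.90 for THEMIS, -3.25 for PLA2G4A, -2.65 for TDO2, -2.75 for NCK1, -2.85 for AHR, -1.90 for ZNF804A, -2.74 for H1-5, -2.59 for RGL1, -2.47 for GLCE, -2.23 for NRIP1 and -2.70 for TBPL1. These genes were named for the size of their U266/s response, which enters the difference, so their passing is partly fixed by that choice.

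Probe sets with no symbol or several, which no comparison above uses, also held calls. Of 13837 such probe sets, 3650 were higher and 952 lower with melphalan in U266/s, whereas 18.4% of tested genes were higher and 24.9% lower. Over all probe sets, the lower quartile and median were higher on both U266/s arrays with melphalan than on both without. The upper quartile was lower. How far the lean to rises among these probe sets depends on that shift or on the scaling was not tested.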

How the results depend on the processing

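The number of genes called in U266/s was 7984 (3391 higher, 4593 lower, 42.5% of calls higher), and the response differed between the lines for 4394. Leaving out 1 array at a time gave 4258 to 8746 called genes, 1228 to 3810 higher, 3030 to 4937 lower, 28.8% to 43.6% of calls higher and 2443 to 5253 differences between the lines. The lowest values came without the U266/s control array. Rises numbered 1778 without the U266/s melphalan-alone array, and the differences between the lines also dropped to 2552 without the U266/LR7 melphalan array. A lone array left in a condition is assumed there to vary like the others. Rises numbered 1669 (23.6% of calls) with median centring, 2082 (29.9%) with cyclic loess, 1859 among genes above the median signal, and 1592 (30.5%) of 5223 calls at an adjusted p under 0.01. In alternatives chosen after seeing the data, the inhibitor-matched pair alone gave 3735 genes (1011 higher, 2724 lower, 27.1% higher), and quantile normalization of the tested genes gave 53.4% higher (4383 higher, 3821 lower). Median centring on the tested genes, likewise added after seeing the data, gave 4501 higher and 4281 lower, so with these scalings rises outnumbered falls. The cause of these shifts was not tested, apart from the fewer arrays or genes where these were left out. Of 348 called genes among the 356 named by rule, 240 kept call and direction in all 16 settings that were run for them, and 0 of the 356 reversed. Low signal limits the size of falls near the array floor.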
